A study of Sus scrofa with 6 samples.

Results

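The granins and the enzymes that turn prohormones into neuropeptides were followed in prefrontal cortex of pigs (Sus scrofa), as 10 genes of 17201 listed in each library. The 10 are SCG2, SCG3, SCG5, CHGA, CHGB, VGF, PCSK1, PCSK2, PCSK1N and CPE. They were chosen by name for their place in the dense-core vesicle, and SCG5 was singled out because its level had been seen to be low after valproic acid. The comparison of treated with control animals was therefore already used in the choice. The difference of SCG5 is given here as a description without a test, and no support is drawn from the other 9. All 10 were listed in the files and all 10 were among the 14373 genes tested.

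RNA came from 6 animals aged 3 months. The VPA group was animals 391, 392 and 393, exposed to valproic acid (VPA, an anticonvulsant that also inhibits histone deacetylases) at 75 mg/kg during early gestation. The control group was animals 401, 402 and 408, labelled as untreated. The labels name no genetic change in either group. Litter and sex: not given in the sources used here. P-values therefore measure the spread between these animals only. Total counts ran from 16285517 to 17989032 per library. The 10 genes had between 1773 counts (VGF in control 402) and 28795 counts (CPE in VPA 393) each.

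Neuropeptides and many hormones are made as long inactive precursors, packed into dense-core vesicles and cut on the way to release. The granins are acidic proteins that aggregate in the trans-Golgi network and help to load these vesicles, and several of them are themselves cut into peptides. The prohormone convertases PCSK1 and PCSK2 cut precursors after pairs of basic residues, and carboxypeptidase E, the product of CPE, then removes those residues. Each convertase has a small partner protein: that of SCG5 escorts and activates the precursor of PCSK2, and that of PCSK1N inhibits PCSK1. In cortex the machinery serves interneurons that make peptides such as somatostatin, as well as pyramidal neurons, which also release growth factors from such vesicles.

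All 10 genes were well expressed in every animal. Levels between genes are compared in FPKM (the deposited counts scaled to gene length and library total). CPE stood highest, at a mean of 761 FPKM over the 6 libraries, above 99.8% of the listed genes. PCSK1N followed at 329 FPKM, SCG5 at 223, CHGB at 189, SCG2 at 181 and CHGA at 125. SCG3 had 89.1 FPKM, PCSK2 87.4, PCSK1 59.5 and VGF 40.9, which was still above 90.3% of listed genes. The mean of CPE was 18.6 times that of VGF. Both convertases thus had lower mRNA levels per length than their partner genes and than CPE.

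Most steps of this order held in every animal. CPE stood above PCSK1N, PCSK1N above SCG5, SCG2 above CHGA, CHGA above SCG3, PCSK2 above PCSK1 and PCSK1 above VGF in 6 of 6 libraries. The ranges of SCG5 (193 to 249.6 FPKM) and CHGB (175 to 200.1) overlapped, although SCG5 was the higher within each of the 6 libraries. CHGB and SCG2 could not be ordered, with CHGB higher in 4 of 6. SCG3 and PCSK2 changed places with the group: SCG3 was higher than PCSK2 in 3 of 3 VPA libraries and in 0 of 3 controls. The margins were narrow in VPA 393 (SCG3 89.0, PCSK2 88.0 FPKM) and in control 401 (84.8 and 86.4 FPKM). The genes were chosen with this comparison known, so nothing is read from that change of places.

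**Figure D1:**
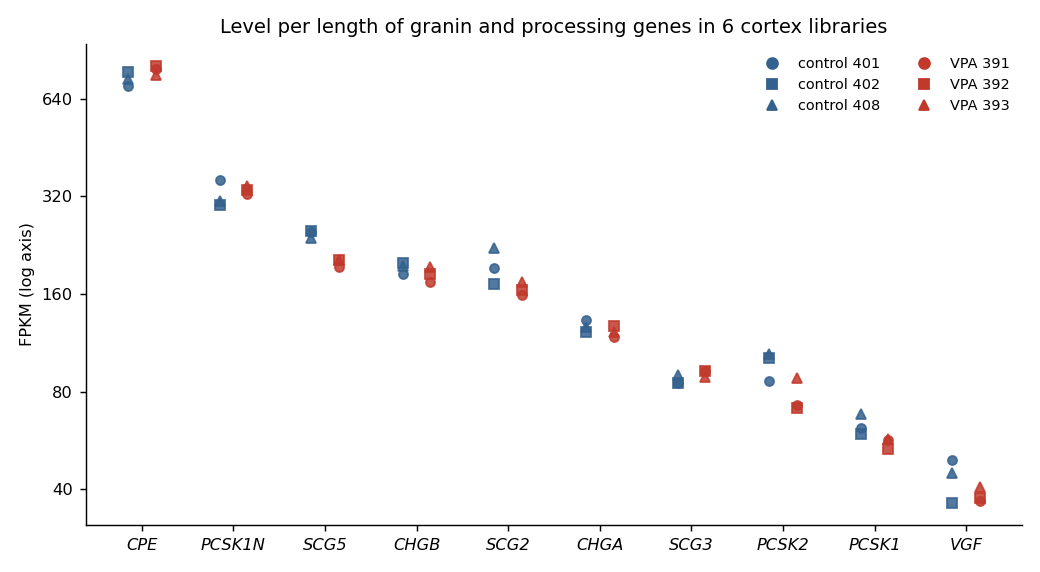
Level per length (FPKM, log axis) of each gene in the 3 control and 3 VPA libraries, ordered by the mean over all 6; each point is 1 animal. CPE lies far above the rest, and the SCG3 and PCSK2 points cross between the groups.

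SCG5, the gene of the PCSK2 escort, was lower in every VPA animal than in any control. In CPM (counts scaled to the library total) it had 318 in control 401, 320.0 in control 402 and 305 in control 408. VPA animals 391, 392 and 393 had 248, 262 and 262 CPM. The highest VPA animal was therefore well under the lowest control, and each group was narrow, with an SD of 7.99 CPM around 257 in VPA and of 8.13 around 314 in controls. The fitted level in VPA was 0.811 of that in controls (log2 fold change -0.30 ± 0.045 SE in edgeR's quasi-likelihood fit). This value is a description, since the gene was named for it. Among 2391 genes with a mean of at least 100 CPM, 18.8% had a smaller spread within the groups than SCG5.

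PCSK2, the convertase that the SCG5 protein serves, had a difference of similar size but wide groups. Its values were 185 CPM in control 401, 218 in control 402 and 224 in control 408, against 156, 153 and 189 CPM in VPA animals 391, 392 and 393. VPA 393 lay just above control 401, so the groups overlapped. The mean was 166 ± 20.0 CPM in VPA and 209 ± 20.9 in controls (SD, n = 3 each). The log2 fold change was -0.35 with a 95% interval of -0.55 to -0.15 and did not pass over all genes (edgeR adjusted p = 0.10). With 1 library left out it ran from -0.45 (without VPA 393) to -0.29 (without VPA 392), with edgeR adjusted p from 0.054 to 0.29. DESeq2 gave an adjusted p of 0.0056, the only 1 of 17 alternatives to call it.

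PCSK1, the other convertase, was lower in each VPA animal than in each control. VPA animals 391, 392 and 393 had 285, 269 and 288 CPM, against 312 in control 401, 298 in control 402 and 345 in control 408. The groups did not overlap, although VPA 393 lay close below control 402. In the fit PCSK1 stood at a log2 fold change of -0.19 (95% interval -0.33 to -0.06, edgeR adjusted p = 0.15).

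PCSK1N, the gene of the PCSK1 inhibitor, did not follow PCSK1. Its mean was 349 ± 10.5 CPM in VPA and 337 ± 32.8 CPM in controls, and all 3 VPA values (338, 350 and 359 CPM) lay inside the control range of 314 to 375 CPM. For PCSK1N the log2 fold change was 0.04 (95% interval -0.10 to 0.18, edgeR adjusted p = 0.82), and -0.015 without control 402.

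CPE was slightly higher on average in VPA, at 1661 ± 54.6 CPM against 1556 ± 76.8 CPM. VPA animals 391, 392 and 393 had 1672, 1708 and 1601 CPM, while control 401 had 1479, control 402 had 1633 and control 408 had 1558. Control 402 lay above VPA 393, so the groups overlapped. For CPE it was 0.08 on the log2 scale (95% interval -0.04 to 0.20, edgeR adjusted p = 0.51), and 0.035 without control 401.

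**Figure D2:**
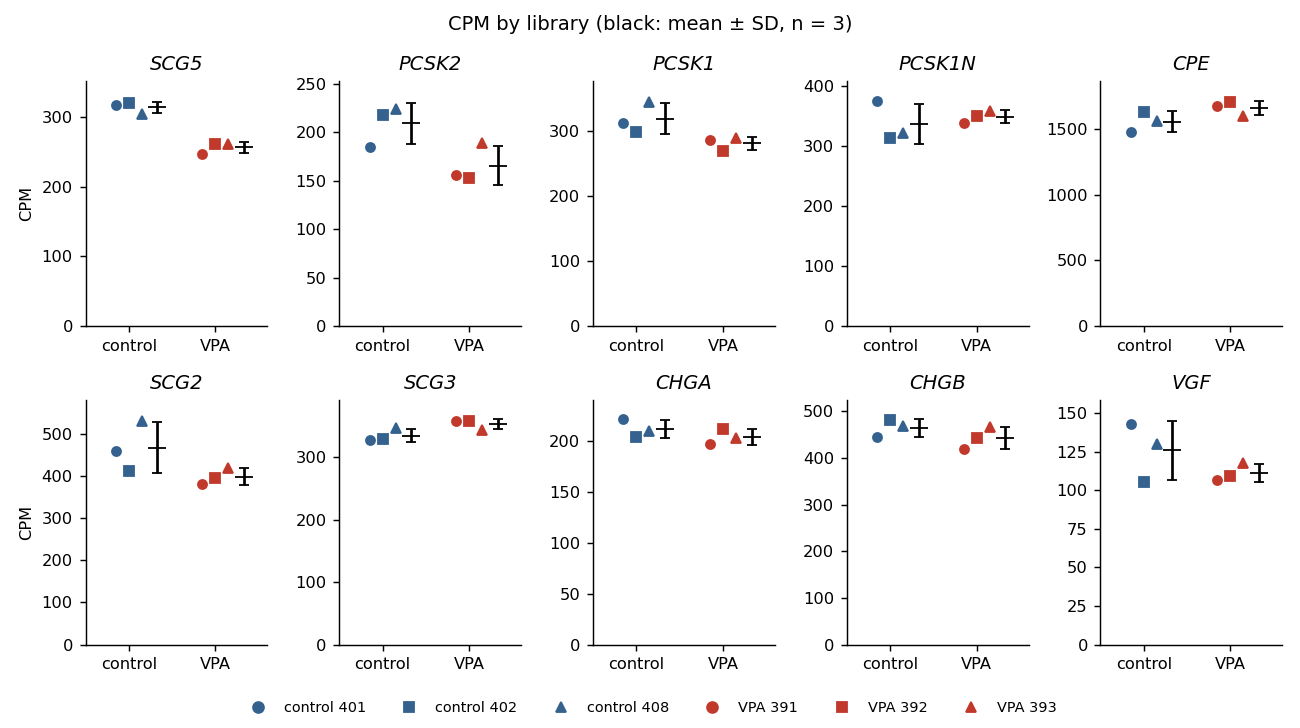
CPM of each gene by library in controls (blue) and VPA animals (red), each axis starting at 0, with the mean ± SD of 3 animals in black. Groups are separate for SCG5 and PCSK1. The VPA 393 point of PCSK2 lies in the control range, and the control 402 point of VGF lies below all VPA points.

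Among the granins, SCG2 (secretogranin II, the precursor of secretoneurin) had the largest difference apart from SCG5. VPA animals 391, 392 and 393 had 380, 395 and 419 CPM, against 459 in control 401, 411 in control 402 and 530.1 in control 408. VPA 393 was above control 402, so the groups overlapped, and the control SD of 60.1 CPM was much wider than the VPA SD of 19.3 CPM. SCG2 had a fitted log2 fold change of -0.24 (95% interval -0.42 to -0.06, edgeR adjusted p = 0.18). It was -0.14 without control 408 and -0.33 without control 402. DESeq2 gave an adjusted p of 0.048.

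VGF, a neurotrophin-inducible precursor of several peptides, varied most within the controls. It had 143 CPM in control 401, 105 in control 402 and 130 in control 408, while VPA animals 391, 392 and 393 had 107, 109 and 118 CPM. Control 402 was the lowest of all 6 libraries. VGF had one of -0.19 on the log2 scale (95% interval -0.40 to 0.01, edgeR adjusted p = 0.34), -0.10 without control 401 and -0.31 without control 402.

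The classical chromogranins, the bulk cargo proteins of dense-core vesicles, differed little. CHGA had 204 ± 7.63 CPM in VPA (197 to 213) and 212 ± 9.19 in controls (204 to 222), with overlapping groups. Its log2 fold change was -0.07 (95% interval -0.18 to 0.04, edgeR adjusted p = 0.55). CHGB had 443 ± 23.1 CPM in VPA (420 to 466) and 465 ± 18.6 in controls (445 to 481), with a log2 fold change of -0.08 (95% interval -0.20 to 0.04, edgeR adjusted p = 0.49).

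SCG3, whose product binds chromogranin A and helps to bring it to the vesicle membrane, leaned the other way. VPA animals 391, 392 and 393 had 358, 357 and 343 CPM, and controls 401, 402 and 408 had 327, 329 and 347 CPM. Control 408 was above VPA 393, so the groups overlapped. The log2 fold change was 0.07 (95% interval -0.04 to 0.17, edgeR adjusted p = 0.55).

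As a group, 7 of the 10 genes had negative and 3 had positive log2 fold changes, with a median of -0.14, where all genes tested had a median of 0.0018 and 49.5% were negative. Without SCG5 the median of the other 9 was -0.08. Of those 9, 0 passed an adjusted p of 0.05 in edgeR, where 0.362% of all genes tested passed, 0.0835% lower and 0.278% higher. DESeq2 called SCG2 and PCSK2 among them, where it called 3.64% of the genes for which it gave an adjusted p. Groups did not overlap for 2 of the 10, SCG5 and PCSK1, both lower in VPA. Over all genes tested 21.2% had groups that did not overlap, and 9.07% were lower in VPA. At an unadjusted p under 0.05 in edgeR SCG2, PCSK1 and PCSK2 were lower and none of the 9 was higher, against 7.47% lower and 8.69% higher among all genes, 16.2% together. Nothing is read from these counts, since the choice of genes used the same comparison.

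No single animal accounted for the low or high values of all genes. VPA 391 was the lowest library for SCG2, SCG5, CHGA and CHGB, and VPA 392 for PCSK1 and PCSK2. Control 401 was the lowest for SCG3 and CPE, and control 402 for VGF and PCSK1N. The highest value was in control 408 for SCG2, PCSK1 and PCSK2, in control 401 for CHGA, VGF and PCSK1N, and in control 402 for SCG5 and CHGB. SCG3 was highest in VPA 391 and CPE in VPA 392. VPA 393 was at neither end for any of the 10.

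Ratios within a library give the proportions between pairs of these genes, which are not all partners. They are given in FPKM as a description, with no test. SCG5 stood at 2.62 ± 0.275 times PCSK2 in VPA and 2.53 ± 0.304 times in controls (SD, n = 3 each). All 6 values lay between 2.28 and 2.87 with overlapping groups. The SCG5 to SCG3 ratio was 2.19 ± 0.106 in VPA and 2.83 ± 0.162 in controls, with groups that did not overlap. SCG5 was chosen for its fall and its groups were already apart in CPM, so nothing is read from that separation.

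The proportion of CPE to both convertases was higher in VPA libraries. CPE was 10.3 ± 1.47 times PCSK2 in VPA (8.60 to 11.3) and 7.57 ± 0.519 times in controls (7.05 to 8.09), with groups apart. Relative to PCSK1 it was 14.1 ± 0.953 times in VPA and 11.7 ± 1.20 times in controls, also apart, by 13.2 in VPA 393 against 13.0 in control 402. The inhibitor to enzyme ratio, PCSK1N to PCSK1, was 6.02 ± 0.275 in VPA and 5.14 ± 0.643 in controls. Control 401, at 5.80, was inside the VPA range of 5.74 to 6.29. CHGB to CHGA ran from 1.45 to 1.59 in VPA and from 1.39 to 1.64 in controls. SCG2 to SCG3 was 1.82 ± 0.131 in VPA and 2.25 ± 0.226 in controls, with groups apart. PCSK1 to PCSK2 was 0.727 ± 0.0678 in VPA and 0.651 ± 0.0684 in controls, with overlapping groups. PCSK1 was already apart in CPM, and the share of other gene pairs with ratios apart was not computed. Nothing is therefore read from the separations of these ratios.

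**Figure D3:**
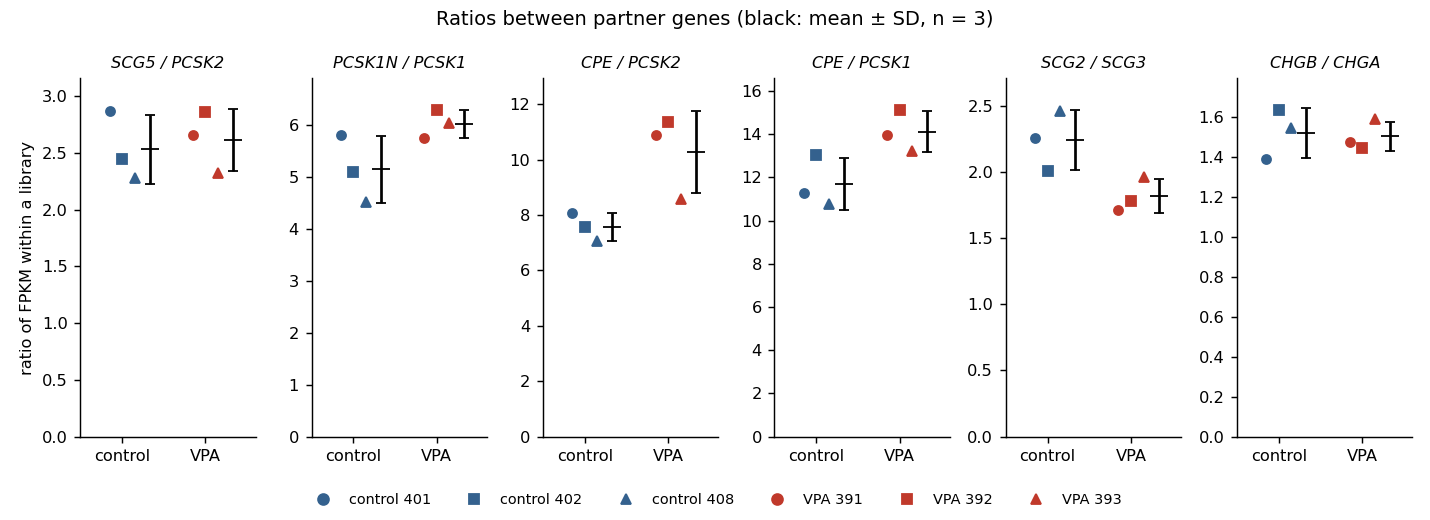
Ratio of FPKM between pairs of genes, not all of them partners, within each library, controls in blue and VPA in red, axes from 0, mean ± SD of 3 animals in black. SCG5 to PCSK2 overlaps between groups (2.62 and 2.53), while CPE to PCSK2 lies higher in VPA (10.3 against 7.57).

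The animals also differed in markers of cell types, and the part of this in the values above was not tested. The summed CPM of 10 pan-neuronal markers was 9391 to 9685 in VPA and 10117 to 10341 in controls, and 9 of the 10 had a lower mean in VPA. That of 11 glutamatergic markers was 5794 to 5996 against 6106 to 6289 (10 of 11 lower), and that of 9 interneuron markers was 702 to 732 against 669 to 681 (8 of 9 higher). Oligodendrocyte markers summed to 17018 to 19181 CPM in VPA and 13058 to 17559 in controls, with 11 of 12 higher, and the groups overlapped. Astrocyte markers summed to 12151 to 13704 CPM in VPA and 11485 to 12134 in controls, without overlap, and 7 of 9 were higher. In bulk tissue fewer neurons and less RNA per neuron cannot be told apart. The cortical markers of glutamatergic neurons were present in all libraries and none of the marker lists had a gene at 0 in all 6. For the pituitary, a tissue very rich in granins, 3 marker genes were listed. They summed to 2.45 to 2.95 CPM in VPA and 1.42 to 2.001 in controls, without overlap, and all 3 had a higher mean in VPA. These sums were near the floor, since 1 CPM stood for 16.3 to 17.99 reads. Only 2 of the 3 genes were tested, and groups did not overlap for 1 of those 2. The pituitary genes PRL, GH1, FSHB and TSHB were not listed, so this sum leaves them out. The part of pituitary tissue in the values above was not tested.

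Set against the pan-neuronal sum, all 10 differences shifted upward together, as the common denominator requires. SCG5 was 2.69% ± 0.119 of that sum in VPA and 3.07% ± 0.0919 in controls (SD, n = 3 each), a log2 difference of -0.19. Its groups were apart here as in CPM, but SCG5 was chosen for its fall, so nothing is read from that. The log2 difference was -0.24 for PCSK2, -0.12 for SCG2, -0.08 for PCSK1 and -0.07 for VGF, each with overlapping groups. It turned positive for CHGA (0.05) and CHGB (0.03). CPE stood at 17.4% ± 0.404 of the sum in VPA and 15.2% ± 0.585 in controls, and SCG3 at 3.70% ± 0.0366 and 3.26% ± 0.0993, with groups apart for both. In CPM the groups of both genes overlapped, whereas the pan-neuronal sums themselves did not. The separation of CPE and SCG3 arose on division by those sums, so nothing is read from it.

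**Figure D4:**
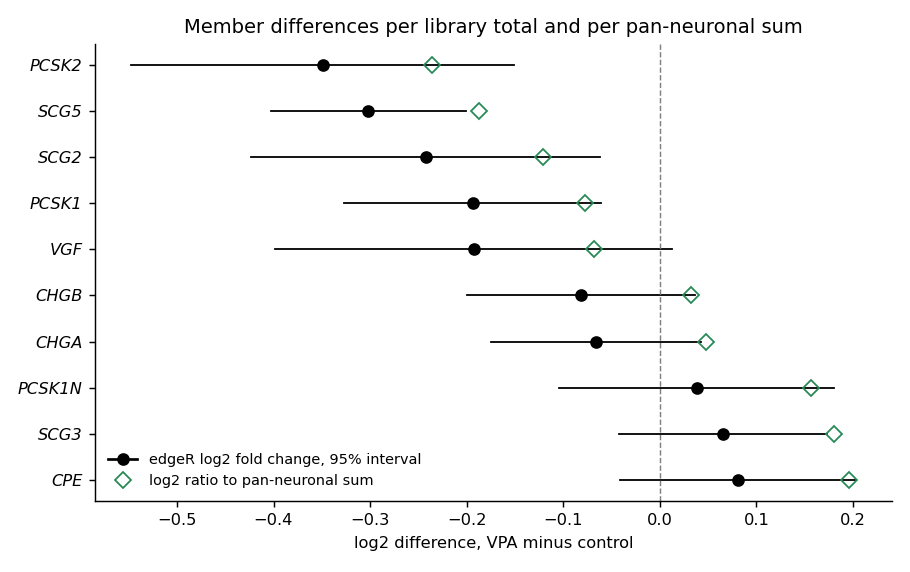
Log2 difference between VPA and control animals for each gene: black points with 95% intervals are the edgeR log2 fold change on library totals, open diamonds the same difference after division by the summed CPM of 10 pan-neuronal markers. SCG5 moves from -0.30 to -0.19 and CPE from 0.08 to 0.20.

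Other genes of the peptide pathway were counted from 4 lists, to be read beside the shares over all genes: 0.362% called in edgeR, 8.69% higher and 7.47% lower at an unadjusted p under 0.05, and 3.64% called by DESeq2. Groups did not overlap in CPM for 21.2% of all genes tested. In the order of the lists below, they did not overlap for 4 of 21, 5 of 13, 5 of 24 and 7 of 26 tested genes. Separation is stated for some named genes only. Genes named for a low p tend to have groups apart, so nothing is read from it. Of 23 other processing enzymes, 21 were tested and 0 were called in edgeR (2 higher and 2 lower at an unadjusted p under 0.05; 1 called by DESeq2), with a median log2 fold change of 0.01. PCSK6, a convertase of the constitutive secretory route, had 73.5 ± 6.66 CPM in VPA and 56.2 ± 4.17 in controls with groups apart (log2 fold change 0.38 ± 0.083, edgeR adjusted p = 0.073). PREPL, a peptidase-like serine hydrolase, had 561 ± 17.8 and 621 ± 36.5 CPM (log2 fold change -0.16, edgeR adjusted p = 0.19) and the highest level of the list, at 109 FPKM. CTSB, a lysosomal cathepsin gene, followed at 104 FPKM (log2 fold change -0.06) and the signal peptidase subunit gene SPCS1 at 100.2 FPKM (-0.12). SPCS2, of the same complex, stood at 0.10 on the log2 scale (edgeR adjusted p = 0.29) and CTSL at -1.14 (adjusted p = 0.29) at 0.538 to 3.36 CPM.

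Of 13 genes of peptide breakdown, all tested, 0 were called in edgeR (3 higher and 0 lower at an unadjusted p under 0.05, against 8.69% and 7.47% of all genes; 1 called by DESeq2, against 3.64%) and the median was 0.07. ACE, the angiotensin-converting enzyme gene, measured 27.7, 34.3 and 28.0 CPM in VPA animals 391, 392 and 393 beside a control range of 19.9 to 22.1 CPM, with groups apart (log2 fold change 0.51 ± 0.10, edgeR adjusted p = 0.062). ECE2, an endothelin-converting enzyme gene, stood at 0.20 on the log2 scale (edgeR adjusted p = 0.24). PREP, THOP1 and ECE1 had the highest levels of the list, at 23.1, 16.9 and 15.9 FPKM, with log2 fold changes of -0.05, 0.16 and 0.07. The lowest p values among negative differences were those of TPP2 (log2 fold change -0.09) and IDE (-0.11).

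Of 24 genes of vesicle assembly and release, all tested, 0 were called in edgeR (1 higher and 4 lower at an unadjusted p under 0.05, against 8.69% and 7.47% of all genes; 2 called by DESeq2, against 3.64%), with a median of -0.05. RAB27B, a small GTPase of vesicle docking, had 33.3 ± 2.77 CPM in VPA and 42.0 ± 2.95 in controls (log2 fold change -0.35 ± 0.085, edgeR adjusted p = 0.097). SYT4, a synaptotagmin of dense-core vesicles, had 142 ± 6.39 and 166 ± 10.2 CPM (log2 fold change -0.24 ± 0.059, edgeR adjusted p = 0.099). Groups did not overlap for either. BAIAP3, a gene of dense-core vesicle traffic, stood at 0.29 on the log2 scale (edgeR adjusted p = 0.16) and SYT10 at 0.41 (adjusted p = 0.57). The highest levels were those of RESP18 at 177 FPKM, the kinesin gene KIF1A at 160.2 and RAB2A at 120 FPKM, with log2 fold changes of -0.03, 0.06 and -0.07.

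Of 49 genes for precursors of neuropeptides and other signalling peptides, 42 were matched and 26 were tested, with a median of 0.10. In edgeR 1 was called, against 0.362% of all genes and 0.278% higher, and 4 were higher and 3 lower at an unadjusted p under 0.05, against 8.69% and 7.47%. The called gene was APLN, the apelin gene, which rose (31.5, 34.5 and 32.97 CPM in VPA 391, 392 and 393 against 14.0 to 20.6 in controls, log2 fold change 0.92, edgeR adjusted p = 0.040). It did not pass without VPA 391, VPA 392, VPA 393, control 402 or control 408 (edgeR adjusted p from 0.056 to 0.13). SST, CCK and NPY had the highest levels, at 538, 408 and 119 FPKM. CCK, the cholecystokinin gene, averaged 307 ± 12.6 CPM in VPA animals against 339 ± 10.8 CPM in controls, with groups apart (log2 fold change -0.16, edgeR adjusted p = 0.17). On the log2 scale SST, the somatostatin gene, differed by 0.13 (edgeR adjusted p = 0.32) and NPY, the neuropeptide Y gene, by 0.19 (edgeR adjusted p = 0.35). ADCYAP1, which encodes the peptide PACAP, had 25.6 ± 0.675 and 35.3 ± 5.48 CPM (log2 fold change -0.48 ± 0.11, edgeR adjusted p = 0.077).

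NTS, the neurotensin gene, was high in VPA 393, at 11.7 CPM, beside 1.61 and 2.15 CPM for VPA animals 391 and 392 and a control range of 0.228 to 1.28 CPM. Its log2 fold change was 3.07 (edgeR adjusted p = 0.11) and 1.62 without VPA 393. The precursor genes PENK, PDYN and TAC1, named after their values were seen, were also highest in that animal. PENK had 106 CPM in VPA 393 and 20.3 to 44.0 in the other 5 libraries, PDYN 44.1 and 3.44 to 10.4, and TAC1 38.9 and 12.7 to 18.03. In the same library 8 striatal markers summed to 474 CPM, against 159 and 166 in the other VPA animals and 125 to 137 in controls. Their part in these precursor values was not tested. None of the 10 granin and processing genes had its highest value over all libraries in VPA 393. Within the VPA group, that library was the highest for SCG2, SCG5, CHGB, VGF, PCSK1, PCSK2 and PCSK1N. It was the lowest there for SCG3 and CPE, with CHGA in between. PCSK2 had 189 CPM in VPA 393, against 156 and 153 in VPA 391 and 392. The part of the striatal markers in these values was not tested either.

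**Figure D5:**
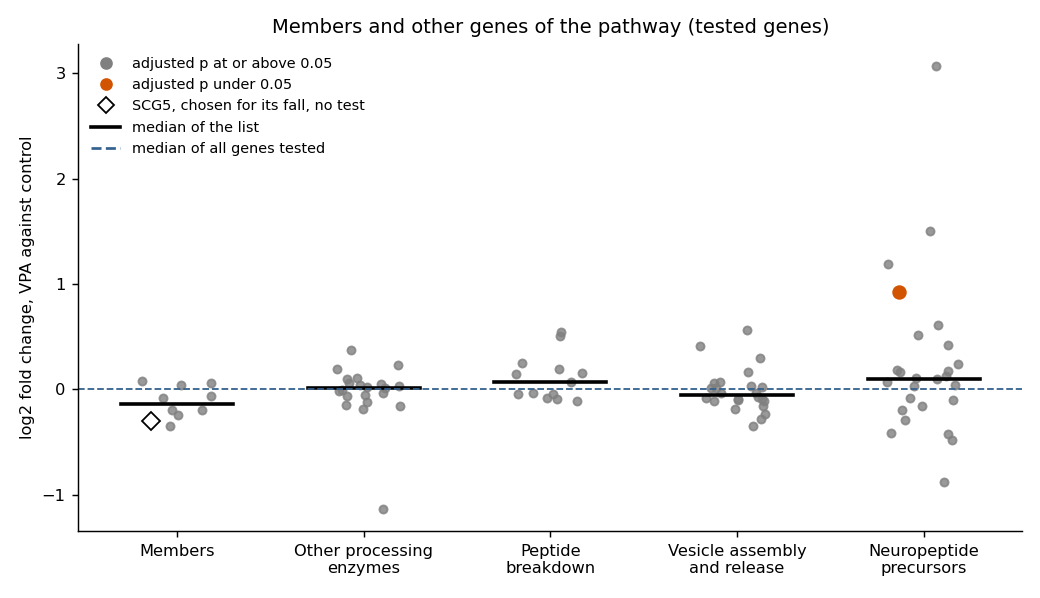
Log2 fold change (VPA against control) of each tested gene in the 10 granin and processing genes and in 4 lists of other pathway genes; the orange point passed an adjusted p of 0.05, the open diamond is SCG5, chosen for its fall and shown without a test, black bars are list medians and the dashed line is the median of all genes. The orange point is APLN, and list medians lie between -0.14 and 0.10.

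The genes with a profile most like SCG5 were found by the root mean square distance between log2 CPM centred per gene, over the 6 libraries and 10221 genes with a mean of at least 10 CPM. The 5 nearest were MRPL2 (distance 0.022), ZNF32 (0.027), THAP1 (0.035), SUPT7L (0.035) and NEUROD6 (0.036). Their log2 fold changes ran from -0.34 to -0.27. Values near the -0.30 of SCG5 follow from this choice of genes, so nothing is read from them. Of the other 9 granin and processing genes the nearest was PCSK1, at 0.11 and rank 1031, followed by CHGB at rank 1454. PCSK2 was at rank 2332 and CPE, the farthest, at rank 6654.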

How the data were processed

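RNA from prefrontal cortex of 3 VPA and 3 control pigs was analysed; groups came from the sample titles. Per the labels' protocols, total RNA was isolated with TRIzol and prepared with the VAHTS Universal V6 kit. Aligner, counting, strandedness, build and annotation: not given in the sources used here. Raw counts per gene and FPKM were deposited by the authors, as the file headers and names show; all 97071 nonzero FPKM values equalled the count over the library total and a whole-number length (relative tolerance 0.001). All pairs of libraries differed by more than sampling noise (chi-square per degree of freedom 5.74 to 12.8 over 15 pairs).

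Counts were tested in R 4.3.3 with edgeR 4.0.16 (filterByExpr, 14373 genes kept; TMM; glmQLFit and glmQLFTest; Benjamini-Hochberg over all genes, threshold 0.05). SE and 95% intervals were derived from its F statistic. CPM used file totals, and log2 CPM a prior count of 2. On simulated counts of 14373 genes for this comparison, edgeR's share of recovered changes was 34.3% at 1.25-fold, 74.6% at 1.5-fold and 98.5% at 2-fold. The changed genes, 66 or 67 per fold, were drawn above a minimum mean CPM, so genes of low level are not covered. Their spread came from edgeR's own fit, and no differences in tissue content between libraries were simulated. Alternatives used DESeq2 1.42.0 and limma 3.58.1.

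The genes and lists were chosen with earlier results of these data known. Named are the 10 genes; from each of the 4 lists every called gene, the 3 with the highest FPKM and, in each direction, the 2 with the lowest p at a mean of at least 1 CPM; and the 5 profiles nearest to SCG5. No sequence was printed.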

Additional observations from a re-analysis of the deposited data

How the results depend on the processing

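No paired analysis was possible because no litter or other link between VPA and control animals was given. Each count was recomputed under 17 alternatives (3 other scalings, 2 other filters, DESeq2, limma-voom, 3 limma fits on FPKM, robust dispersion and 6 single libraries left out). Of the 10 granin and processing genes 1 was called in edgeR, SCG5, whose fall in this comparison chose it, so nothing is read from that call; DESeq2 called 3 (SCG2, SCG5 and PCSK2). With limma on log2(FPKM + 1), on log2(FPKM + 0.1) and without the filter 0 were called, as for neuropeptide precursors, which otherwise had 1 and had 2 with DESeq2 and 2 with robust dispersion. Leaving out 1 library gave 0 to 1 for both lists. It was 0 without VPA 391, VPA 392, VPA 393, control 402 or control 408, where 0 to 5 of all genes were called. Processing enzymes had 0, and 1 (PCSK6) with DESeq2 and with robust dispersion. Peptide breakdown had 0, and 1 (ACE) with no filter, DESeq2 or robust dispersion. Vesicle genes had 0, and 2 (SYT4 and RAB27B) with DESeq2. Over all genes edgeR called 52, robust dispersion 168, no filter 141, limma-voom 30, DESeq2 444 and limma on FPKM 1 to 2.

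The log2 fold change of SCG5 ran from -0.32 to -0.29 with 1 library left out and was -0.19 per pan-neuronal sum. Signs reversed for CHGA (0.048) and CHGB (0.032) per pan-neuronal sum. With 1 library left out PCSK1N ran from -0.015 (without control 402) to 0.11, and RESP18 from -0.10 to 0.028 (without control 408). The cause was not tested. Depth did not limit the 10 genes, with 1773 counts or more per library; it limits precursors near 1 CPM, where 1 CPM stood for 16.3 to 17.99 reads.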
